A study of Mus musculus with 12 samples.

Results

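The genes examined here are the 10 that carry serotonin through its life in a cell: the tryptophan hydroxylases Tph1 and Tph2 and the decarboxylase Ddc for synthesis, the vesicular transporters Slc18a1 and Slc18a2 for storage, the monoamine oxidases Maoa and Maob for breakdown, and the receptor genes Htr1d, Htr2b and Htr3a. They were picked by symbol and found by Ensembl identifier, and make up 10 of the 54532 genes listed for each library. RNA came from pancreatic islets, purified by collagenase digestion and a density gradient, of male C57BL/6 mice labelled as 40 weeks old. The 12 libraries form 4 groups of 3. STD WT are wild type mice kept on a standard diet with 6.2% fat, and STD KO are mice with a knockout of Sirt3 selective for beta cells on that same diet. HFD WT and HFD KO are the corresponding mice fed a diet with 60% of calories from fat for 36 weeks, after 4 weeks of standard food in WT and 5 or 6 weeks in KO. The feeding times given for HFD KO add up to more than the labelled 40 weeks, so these mice may have been older than HFD WT. The earlier feeding period, any difference in age and the genotype therefore cannot be told apart within the high fat groups. The labels name neither the Cre driver nor whether the wild type mice carried one, so loss of Sirt3 and any effect of a driver transgene cannot be told apart either. Sirt3 encodes a mitochondrial deacetylase.

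Serotonin is made from tryptophan in a pair of steps. A tryptophan hydroxylase adds the hydroxyl group and sets the pace, with Tph1 the form known from the gut, pineal gland and islets and Tph2 the form of neurons, and Ddc then removes the carboxyl group. Beta cells store the amine in their secretory granules together with insulin, and in pregnancy prolactin and placental lactogen, acting through the prolactin receptor and STAT5, raise Tph1 strongly in mouse islets. Htr2b, Htr1d and Htr3a are receptors through which islet serotonin is known to act on beta cell division and insulin release. Beta cells can also take up and decarboxylate other amine precursors, so Ddc, the vesicular transporters and the oxidases serve dopamine as well.

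Across these genes, Tph1 and Tph2 were far higher in KO than in WT islets, while none of the other 6 tested members passed the threshold in edgeR as fitted here, with 1 mean per group. Under the high fat diet both rose in KO islets. Under the standard diet Tph2 rose, and Tph1 did so only when 1 unusual wild type library was left out or another tool was used. The storage gene Slc18a1 was higher on average in KO islets under both diets, but short of the threshold in edgeR as fitted here. With a replicate block in edgeR it passed under the high fat diet (adjusted p = 0.0478) and averaged over both diets (adjusted p = 0.0435). Some other alternatives called it too, among them DESeq2 under the high fat diet and, on average, edgeR without that wild type library. No member passed the threshold with diet in either genotype.

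The starts of the Tph genes are shown because these members moved together between the genotypes. The windows are RefSeq promoters on GRCm38.p6, the assembly behind the files' mm10 build, and run from 250 bases before to 50 bases after an annotated start, on the coding strand. Capitals mark TGACG, the core of a cAMP response element, in either orientation (CGTCA on the reverse). Tph1 has a window at the outermost start of the gene, chr7:46672488-46672787, and another at a start inside the gene, chr7:46667328-46667627. Tph2 has 1 window, chr10:115184973-115185272. All 3 lie on the minus strand.

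Tph1 outer start: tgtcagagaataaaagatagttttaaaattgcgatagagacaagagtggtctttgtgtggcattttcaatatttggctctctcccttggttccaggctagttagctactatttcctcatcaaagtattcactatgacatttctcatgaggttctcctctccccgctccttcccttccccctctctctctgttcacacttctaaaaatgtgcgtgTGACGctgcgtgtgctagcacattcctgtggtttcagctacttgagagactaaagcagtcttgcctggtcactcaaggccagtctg
Tph1 inner start: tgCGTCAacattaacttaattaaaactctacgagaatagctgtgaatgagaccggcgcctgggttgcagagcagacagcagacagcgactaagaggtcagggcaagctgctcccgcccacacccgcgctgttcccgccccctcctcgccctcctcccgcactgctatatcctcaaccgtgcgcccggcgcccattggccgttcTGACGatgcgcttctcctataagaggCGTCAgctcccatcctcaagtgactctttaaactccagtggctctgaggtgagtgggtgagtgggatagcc
Tph2 start: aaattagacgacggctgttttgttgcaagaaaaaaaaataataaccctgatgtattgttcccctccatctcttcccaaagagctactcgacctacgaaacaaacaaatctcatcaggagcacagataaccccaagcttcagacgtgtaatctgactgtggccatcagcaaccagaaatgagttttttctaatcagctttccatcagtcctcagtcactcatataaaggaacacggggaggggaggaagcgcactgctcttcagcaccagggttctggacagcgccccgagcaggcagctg

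The outer Tph1 window holds TGACG once, 36 bases before the start, and the inner window holds it 3 times, 248, 47 and 21 bases before the start. The Tph2 window does not hold these letters. The STAT pattern TTCNNNGAA, which reads the same on both strands, is in none of the 10 windows found for 7 of the 10 members. Of the 32851 mouse promoter windows of this length, 8.30% hold the STAT pattern and 20.8% hold TGACG on either strand. These are letters in a window of 300 bases and say nothing of what binds there.

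Library totals lay between 16037709 and 20864920 counts, so 1 count is worth about the same in each. Levels are given as CPM, the counts of a gene per 1000000 counts of its library. Sirt3 itself was at 9.48 to 11.6 CPM in the 6 WT libraries and at 6.07 to 7.29 CPM in all KO libraries but HFD KO 2, which had 10.4 CPM and so sits inside the WT range. STD WT 3 also stands apart. It had the highest Tph1, Tph2, Cish and Socs2 of all WT libraries and the lowest summed acinar cell markers of the 12, at 4530 CPM against 7410 to 24735 CPM in the others. Where leaving out STD WT 3 moved a Tph value or a call, the value without it is given beside the result. Counts of genes called refer to edgeR's quasi-likelihood test over the 16076 genes with enough counts, with Benjamini-Hochberg adjusted p under 0.05. Of the members, 8 could be tested, and Htr1d and Htr2b had too few counts. Sirt3 itself did not pass in KO against WT by this test. Its log2 fold change was -0.79 under the standard diet (SE 0.22, adjusted p = 0.156 in edgeR). It was -0.35 under the high fat diet (SE 0.22, adjusted p = 0.363 in edgeR) and -0.57 averaged over both (SE 0.16, adjusted p = 0.0503). Separate animals are not stated for the libraries of a group, and p-values then reflect the spread among these samples alone, which may be technical.

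Tph1 (ENSMUSG00000040046; mm10 chromosome 7, 46644641 to 46672537, minus strand) was close to absent in most WT libraries. It was at 1.41, 0.67 and 41.5 CPM in STD WT 1, 2 and 3, at 1.15, 0.91 and 0.95 CPM in HFD WT, at 423, 605 and 445 CPM in STD KO, and at 1054, 633 and 884 CPM in HFD KO. Every KO library lay above every WT library, with the lowest KO library at 423 CPM and the highest WT library, STD WT 3, at 41.5 CPM. Behind these values are 11 to 29 counts in the 5 low WT libraries, 782 in STD WT 3 and 7421 to 18588 in the KO libraries. HFD KO 2, whose Sirt3 was in the WT range, had 633 CPM of Tph1, the lowest of its group and higher than any STD KO library.

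Under the high fat diet Tph1 rose from 1.01 ± 0.13 CPM in WT to 857 ± 212 CPM in KO (SD, n = 3), which edgeR's quasi-likelihood test put at 9.71 on the log2 scale (SE 1.52, adjusted p = 0.00378). The call held in all 23 alternatives, with adjusted p up to 0.0316 without HFD WT 3. Under the standard diet Tph1 averaged 14.5 ± 23.4 CPM in WT islets against 491 ± 99.6 CPM in KO islets (SD, n = 3), and the log2 fold change of 4.91 (SE 1.19, adjusted p = 0.0874 in edgeR) did not pass. Without STD WT 3 it was 8.77 with an adjusted p of 1.06e-05 by edgeR. DESeq2 also called it with all libraries in (adjusted p = 0.00125). Averaged over both diets, edgeR put the difference at 7.31 on the log2 scale (SE 0.97, adjusted p = 0.000884), and at 9.24 without STD WT 3.

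Tph2 (ENSMUSG00000006764; mm10 chromosome 10, 115078641 to 115185022, minus strand), the neuronal hydroxylase, showed the same division at a lower level. It was at 0.49, 1.16 and 3.45 CPM in STD WT 1, 2 and 3 and at 0.72, 0.55 and 0.51 CPM in HFD WT. In KO it stood at 25.1, 23.8 and 21.9 CPM under the standard diet and at 30.5, 23.5 and 27.0 CPM under the high fat diet. The KO libraries varied little among themselves, from 21.9 to 30.5 CPM, and the groups did not overlap. As for Tph1, the highest WT library was STD WT 3.

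Tph2 rose in KO islets under the standard diet by a log2 fold change of 3.64 (SE 0.53, adjusted p = 0.00541 in edgeR) and by 5.49 with high fat feeding (SE 0.60, adjusted p = 0.00046). Averaged over both diets the value was 4.56 (SE 0.40, adjusted p = 5.37e-05 in edgeR). Without STD WT 3 the standard diet value was 4.75 and the averaged value 5.11. The high fat call held in all 23 alternatives. The standard diet call was lost in 1 of 23, a fit of the compared groups alone (adjusted p = 0.0829 in edgeR). In WT libraries Tph2 rested on 9 to 65 counts, so its fold changes depend on small numbers there.

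**Figure D1:**
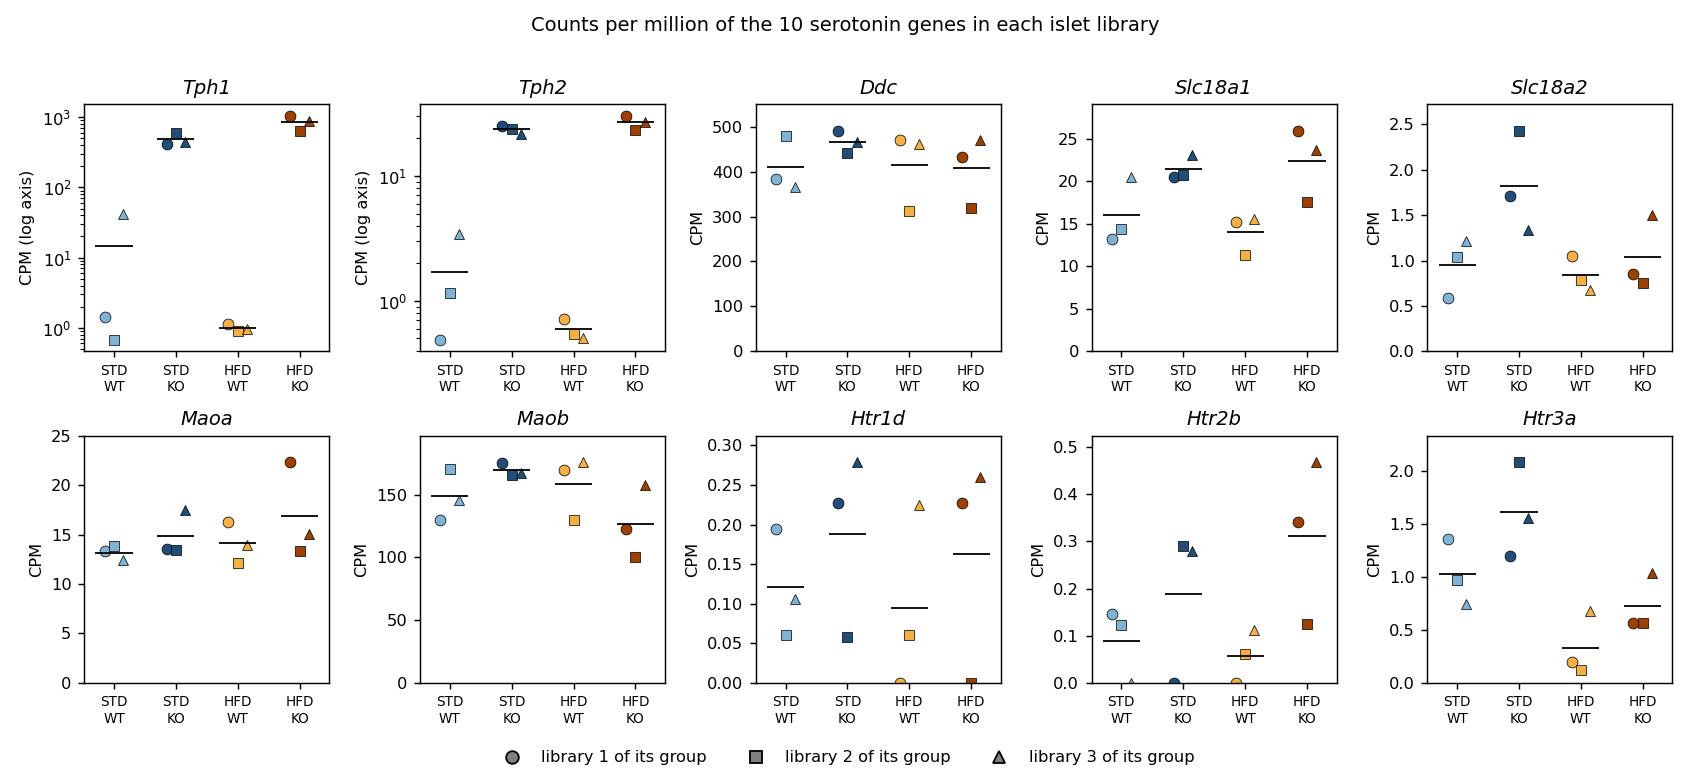
CPM (y axis) of each of the 10 members in the 12 libraries, by group on the x axis, with a log axis for Tph1 and Tph2 and linear axes from 0 for the others. Each point is 1 library, its shape gives the library number, and the horizontal line is the group mean. Tph1 and Tph2 separate KO from WT in both diets with STD WT 3 the highest WT library, whereas the Ddc, Maoa and Maob points overlap between groups.

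Ddc (ENSMUSG00000020182; mm10 chromosome 11, 11814101 to 11898144, minus strand), the decarboxylase that completes synthesis, was abundant in every library. It was at 384, 479 and 367 CPM in STD WT, 491, 443 and 466 CPM in STD KO, 471, 313 and 461 CPM in HFD WT and 432, 320 and 471 CPM in HFD KO. WT and KO overlapped under both diets. The log2 fold change of KO against WT was 0.05 (SE 0.21) under the standard and -0.04 (SE 0.21) under the high fat diet, with adjusted p of 0.999 and 0.928 by edgeR. The 12 libraries spanned 313 to 491 CPM in all.

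Slc18a1 (ENSMUSG00000036330; mm10 chromosome 8, 69037711 to 69089235, minus strand) encodes the vesicular monoamine transporter of endocrine cells, VMAT1. It was at 13.2, 14.4 and 20.5 CPM in STD WT, 20.5, 20.7 and 23.1 CPM in STD KO, 15.2, 11.4 and 15.5 CPM in HFD WT and 25.9, 17.5 and 23.7 CPM in HFD KO. Under the high fat diet every KO library lay above every WT library. Under the standard diet the genotypes met at 20.5 CPM, the rounded level of both STD WT 3 and STD KO 1.

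The log2 fold change of Slc18a1 was 0.28 for the standard diet (SE 0.22, adjusted p = 0.96 in edgeR) and 0.67 for the high fat diet (SE 0.22, adjusted p = 0.0956). Same-numbered libraries of the high fat groups deviated together, which at 3 libraries per group does not settle whether they are pairs. With the replicate number as a block the high fat difference passed (log2 fold change 0.67, adjusted p = 0.0478 by edgeR). The difference passed too with the block in the high fat groups only (adjusted p = 0.0464 in edgeR). It also passed with DESeq2 (adjusted p = 0.0477) and without STD WT 3 and HFD KO 2 (0.82, adjusted p = 0.0479 in edgeR), and in none of the 12 fits that left out 1 library. Averaged over both diets the log2 fold change was 0.47 (adjusted p = 0.108 in edgeR), 0.49 with the replicate block (adjusted p = 0.0435) and 0.59 without STD WT 3 (adjusted p = 0.0364). Without STD WT 3 and HFD KO 2 it was 0.69 (adjusted p = 0.0202 in edgeR). The average also passed with limma on log2 FPKM (adjusted p = 0.0411 at pseudocount 1 and 0.0405 at 0.1).

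Slc18a2 (ENSMUSG00000025094; mm10 chromosome 19, 59260896 to 59296012, plus strand) encodes VMAT2, the form of neurons and platelets. It was low throughout, at 0.58, 1.04 and 1.22 CPM in STD WT, 1.71, 2.43 and 1.34 CPM in STD KO, 1.05, 0.79 and 0.67 CPM in HFD WT and 0.85, 0.75 and 1.51 CPM in HFD KO. The standard diet groups did not overlap and the high fat groups did. With 12 to 42 counts per library, the log2 fold changes of 0.81 (SE 0.42, adjusted p = 0.711 in edgeR) and 0.26 (SE 0.43, adjusted p = 0.759) did not pass.

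Maoa (ENSMUSG00000025037; mm10 chromosome X, 16619698 to 16687818, plus strand) encodes the oxidase that prefers serotonin. It was at 13.3, 13.8 and 12.5 CPM in STD WT, 13.6, 13.4 and 17.6 CPM in STD KO, 16.3, 12.2 and 14.0 CPM in HFD WT and 22.3, 13.3 and 15.1 CPM in HFD KO. The genotypes overlapped under each diet, and the highest library of each KO group was STD KO 3 and HFD KO 1. Maob (ENSMUSG00000040147; mm10 chromosome X, 16709282 to 16817366, minus strand), its neighbour, was at 130, 171 and 146 CPM in STD WT, 175, 166 and 167 CPM in STD KO, 170, 130 and 176 CPM in HFD WT and 122, 100.2 and 158 CPM in HFD KO. The 2 lowest Maob libraries of the 12 were HFD KO 1 and HFD KO 2, and the groups overlapped under each diet. The high fat log2 fold changes were 0.26 (SE 0.22) for Maoa and -0.34 (SE 0.18) for Maob, with adjusted p of 0.518 and 0.28 by edgeR.

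Of the receptors, Htr3a (ENSMUSG00000032269; mm10 chromosome 9, 48899213 to 48911099, minus strand), a subunit of the ion channel receptor, was the only one with enough counts for the main test. It was at 1.36, 0.97 and 0.74 CPM in STD WT, 1.196, 2.08 and 1.56 CPM in STD KO, 0.19, 0.12 and 0.67 CPM in HFD WT and 0.57, 0.56 and 1.04 CPM in HFD KO. The high fat libraries lay below the standard diet libraries in both genotypes, without overlap between the diets within a genotype. These are 2 to 36 counts per library.

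The log2 fold change of Htr3a with the high fat diet was -1.58 (SE 0.56, adjusted p = 0.965 in edgeR) in WT and -1.01 (SE 0.52, adjusted p = 0.452) in KO, and neither passed. Summed over libraries, HFD WT held 18 counts and STD WT 58, a ratio of 0.314 after scaling to library size (95% exact interval 0.174 to 0.541, covering counting error only). The ratio in KO was 0.458 (0.305 to 0.676), from 39 and 85 counts. KO against WT gave 0.54 (SE 0.51) under the standard and 1.11 (SE 0.57) under the high fat diet, also short of the threshold with adjusted p of 0.999 and 0.256 by edgeR.

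Htr1d (ENSMUSG00000070687; mm10 chromosome 4, 136423524 to 136444398, plus strand), an inhibitory receptor, had 0 to 5 counts per library and was at 0 in HFD WT 1 and HFD KO 2. Its group sums were 7 counts in STD WT, 10 in STD KO, 5 in HFD WT and 9 in HFD KO, and no difference between groups was detectable at this depth. Htr2b (ENSMUSG00000026228; mm10 chromosome 1, 86099026 to 86111970, minus strand), the receptor tied to beta cell expansion in pregnancy, had 3, 2 and 0 counts in STD WT, 0, 5 and 5 in STD KO, 0, 1 and 2 in HFD WT and 6, 2 and 9 in HFD KO. The high fat sums of 3 and 17 counts gave a ratio of 5.90 (95% exact interval 1.71 to 31.4, counting error only), with HFD KO 2 equal to the highest HFD WT library in counts. With no filter on low counts, edgeR put the high fat difference of Htr2b at 2.35 on the log2 scale. It did not pass (SE 1.14, adjusted p = 0.359 in edgeR). Htr2b shares 252 exon bases, 11.8% of its own, with Psmd1 on the opposite strand, which held 20132 counts in all. The strand setting of the counting is not given in the sources used here, so the Htr2b counts are uncertain. A count of 0 in a library allows up to 3 counts.

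Read against all genes, 1 of the 8 tested members passed in KO against WT under the standard diet, where 1.71% of the 16076 genes passed, and 2 of 8 under the high fat diet, where 7.4% did. Averaged over both diets 2 of 8 passed beside 7.77% of all genes. The median log2 fold change of the 8 was 0.41 under the standard and 0.46 under the high fat diet, beside -0.02 and -0.00 over all genes. High fat against standard diet called 0 of 8 in WT, where 0% of all genes passed (0 genes by edgeR, 38 by DESeq2 and 762 at an unadjusted p under 0.05). In KO it called 0 of 8, where 0.0435% of all genes, 7 in number, passed. At an unadjusted p under 0.05 in edgeR, 3 of 8 members differed with diet in WT (Tph1, Tph2 and Htr3a), where 4.74% of all genes did, and 0 of 8 in KO, where 12.5% did. Without STD WT 3 the WT diet difference was 0.02 for Tph1 and -0.37 for Tph2 on the log2 scale. DESeq2 called no member with diet in either genotype.

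**Figure D2:**
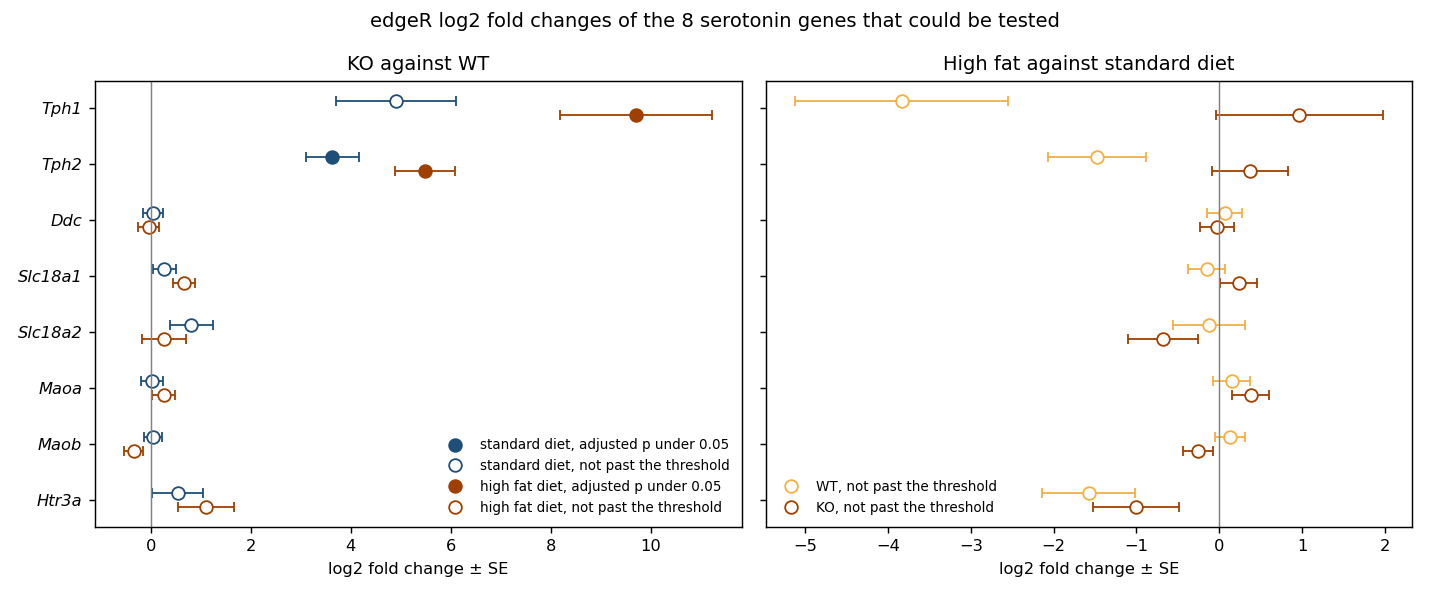
Log2 fold change with its SE (x axis) from edgeR for the 8 tested members (y axis), for KO against WT in each diet (left) and for the high fat against the standard diet in each genotype (right). Filled points passed the adjusted threshold and open points did not. Tph1 under the high fat diet and Tph2 under both diets are filled, and every point on the right is open.

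Whether the genotype difference itself depended on diet was tested as an interaction, which called 0 of 8 members beside 0% of all genes (0 by edgeR, 30 by DESeq2, 1271 at an unadjusted p under 0.05). For Tph1 the interaction was 4.81 on the log2 scale (SE 1.64, adjusted p = 0.621 in edgeR) and for Tph2 1.85 (SE 0.75, adjusted p = 0.621). The unadjusted p was 0.0145 for Tph1 and 0.0322 for Tph2. Without STD WT 3 the interaction was 0.95 for Tph1 and 0.74 for Tph2. With diet in WT, Tph1 differed by -3.84 on the log2 scale (SE 1.29, adjusted p = 0.958 in edgeR), and without STD WT 3 by 0.02. The diet value of Tph2 in WT was -1.48, and -0.37 without STD WT 3. The sizes of these 4 values thus rest largely on the single library STD WT 3. Between the KO groups, high fat against standard diet gave 0.97 for Tph1 (SE 1.01, adjusted p = 0.729 in edgeR) and 0.37 for Tph2 (SE 0.46, adjusted p = 0.785), although all HFD KO libraries had more Tph1 than all STD KO libraries.

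To compare levels between genes, the deposited FPKM values were used, which divide the counts by gene length. In WT islets Ddc came first at 345 ± 50.9 FPKM in STD WT and 349 ± 74.0 in HFD WT, then Maob at 107 ± 15.04 and 114 ± 17.9, then Slc18a1 at 9.99 ± 2.45 and 8.76 ± 1.44 and Maoa at 3.17 ± 0.16 and 3.40 ± 0.50 (SD, n = 3). Tph1 in STD WT, at 10.0 ± 16.1 FPKM, overlapped Slc18a1 only because of STD WT 3, and in HFD WT it stood at 0.69 ± 0.09, below Maoa. The remaining genes were under 3 FPKM in every WT library. Among them Slc18a2, Htr3a, Htr1d and Htr2b each overlapped its neighbour in the order in HFD WT. In KO islets Tph1 stood at or near the top of this order. In STD KO it stood at 338 ± 68.5 FPKM, overlapping Ddc at 392 ± 20.4, and in HFD KO at 590 ± 146 FPKM, above Ddc at 343 ± 66.0 without overlap. Tph2 followed Maob in KO, at 16.2 ± 1.09 and 18.5 ± 2.38 FPKM, next to Slc18a1 at 13.4 ± 0.89 and 14.0 ± 2.72, with overlap in HFD KO only.

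This order depends on the length assigned to each gene. The lengths implied by the FPKM are 1453 bases for Tph1, 1190 for Ddc and 1389 for Maob, whereas the union of their exons in GENCODE M21 is 6172, 4461 and 2789 bases. With the union lengths Tph1 stayed first in HFD KO but its range then overlapped that of Ddc, Maoa moved above Slc18a1 in both WT groups, and Tph2 moved above Tph1 in HFD WT.

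Within a library, the summed FPKM of the hydroxylases stood to that of Ddc as follows. The ratio was 0.00404, 0.00311 and 0.1003 in STD WT 1, 2 and 3 and 0.00325, 0.00381 and 0.00259 in HFD WT. In STD KO it was 0.746, 1.16 and 0.821 and in HFD KO 2.06, 1.68 and 1.58. Hydroxylase transcript was thus a small part of that of the decarboxylase in WT and near or above its level in KO, and the 4 groups did not overlap apart from the WT groups. With the union lengths the KO means were 0.845 and 1.62 in place of 0.910 and 1.77.

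Tph1 exceeded Tph2 per length by a ratio of 16.9 to 25.5 in STD KO and 27.1 to 34.8 in HFD KO, and by 1.61 to 1.90 in HFD WT. In STD WT the ratio was 2.91, 0.582 and 12.1. The KO groups did not overlap with each other or with WT, so the surplus in KO was larger for Tph1 than for Tph2. With the union lengths the HFD WT mean fell below 1, to 0.802 from 1.73, and the HFD KO mean was 14.7 in place of 31.6. Slc18a1 exceeded Slc18a2 by 20.2 to 72.3 over the 12 libraries and Maob exceeded Maoa by 16.4 to 38.8, with overlap between groups in both. With the union lengths these ranges were 8.25 to 29.5 and 8.18 to 19.3. The Maob to Maoa ratio was lowest in HFD KO 1 and HFD KO 2, at 16.4 and 22.5.

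**Figure D3:**
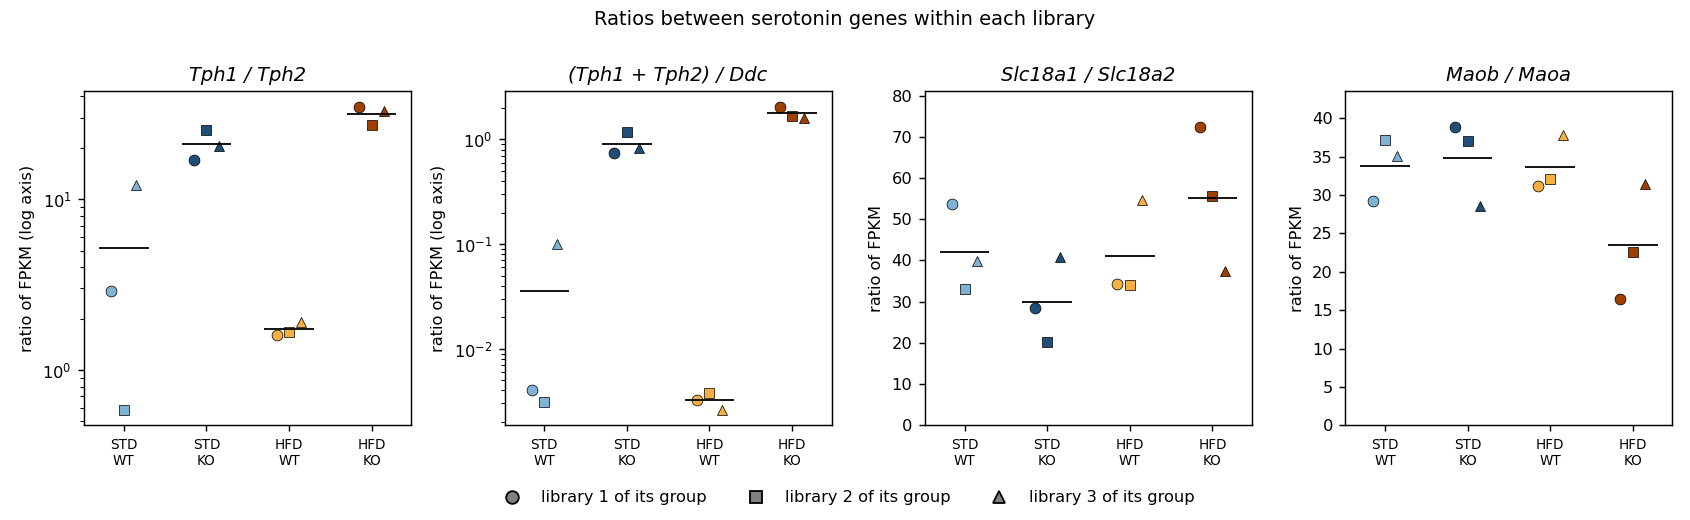
Ratios of FPKM (y axis) between members within each library, by group on the x axis, with log axes for the left pair of panels and linear axes from 0 for the right pair. Points are libraries, shapes give the library number and lines are group means. Tph1 over Tph2 and the hydroxylases over Ddc separate KO from WT, with STD WT 3 between them, while the vesicular transporter and oxidase ratios overlap.

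The other genes of the pathway were followed through lists that hold the further receptors, amine transporters, cofactor enzymes, tryptophan carriers, product enzymes, catecholamine enzymes and regulators of the Tph genes. None of the 11 other receptors had enough counts to be tested. The highest was Htr1b, at a mean of 0.38 CPM, and 6 of them (Htr1a, Htr1f, Htr2c, Htr4, Htr5a and Htr6) were at 0 in 6 or more libraries. Of the 8 genes for tetrahydrobiopterin, the cofactor both hydroxylases need, 0 passed under either diet. Of all genes, 1.71% passed under the standard and 7.4% under the high fat diet. Gch1, which starts its synthesis, averaged 142 ± 2.74 CPM in STD WT against 132 ± 11.7 CPM in STD KO, and 157 ± 9.99 CPM in HFD WT against 134 ± 14.2 CPM in HFD KO (SD, n = 3). Also 0 of 6 tested genes for tryptophan uptake and competing breakdown and 0 of 7 tested genes for serotonin products passed in either genotype comparison. The medians of the tryptophan and product lists lay between -0.10 and 0.43 on the log2 scale. At the shares of 1.71% and 7.4%, 0 called in lists this short does not set them apart from all genes.

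Among 5 tested amine transporters, 1 passed under the high fat diet, where 7.4% of all genes passed, and this was Slc29a4, which fell. It encodes the plasma membrane monoamine transporter, which carries serotonin at low affinity. It was at 29.0, 33.3 and 44.0 CPM in STD WT, 27.2, 24.0 and 26.9 CPM in STD KO, 42.3, 39.5 and 45.5 CPM in HFD WT and 11.8, 12.4 and 17.0 CPM in HFD KO. Every HFD KO library was below every other library, and the groups did not overlap under either diet. In edgeR the difference was -1.64 on the log2 scale with high fat feeding (SE 0.18, adjusted p = 0.000355) and -0.59 on the standard diet (SE 0.18, adjusted p = 0.188), and the high fat call held in all 23 alternatives. The serotonin transporter Slc6a4 was near the floor, with means of 0.36 to 0.50 CPM over the groups. Of the catecholamine enzymes only Th, which makes the dopamine precursor, was tested. It fell in KO under the high fat diet from 27.5 ± 7.62 CPM to 11.2 ± 2.94 CPM (SD, n = 3), which edgeR put at -1.33 on the log2 scale (SE 0.29, adjusted p = 0.0167). The call was lost without HFD WT 1, HFD WT 3, HFD KO 1 or HFD KO 2, with adjusted p up to 0.091.

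Of the 11 regulators, 3 rose in KO under the standard diet, where 1.71% of all genes passed in either direction, and 3 rose and 1 fell under the high fat diet, where 7.4% passed, with median log2 fold changes of 0.00 and -0.51. Those that rose were Prlr, the prolactin receptor, and Cish and Socs2, feedback inhibitors that STAT5 switches on. Cish was at 8.75, 3.53 and 23.3 CPM in STD WT, 77.0, 64.7 and 71.8 CPM in STD KO, 2.64, 4.74 and 3.93 CPM in HFD WT and 68.3, 56.8 and 76.8 CPM in HFD KO. As for the Tph genes, STD WT 3 was the highest WT library and the groups did not overlap. The log2 fold changes under the standard and high fat diets were 2.43 and 4.17 for Cish, 2.30 and 3.04 for Socs2, and 1.36 and 1.82 for Prlr. Prlr in STD WT 3, at 208 CPM, was not high among the WT libraries, which spanned 130 to 259 CPM. The standard diet call of Cish held in 9 of 23 alternatives and that of Prlr in 14 of 23, while that of Socs2 held in all 23. Cish was lost in 10 of the 12 fits that left out 1 library, with the replicate block (adjusted p = 0.0848 in edgeR; 0.107 with the block in the high fat groups only), with no filter on low counts (adjusted p = 0.16) and with the compared groups alone (adjusted p = 0.286, the highest). Prlr was lost in 9 of the 12, with the highest adjusted p, 0.161, without STD WT 1 and 0.154 without STD WT 3. Without STD WT 3 the standard diet value was 3.44 for Cish and 2.75 for Socs2.

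The regulator that fell was Lmx1b, a transcription factor of serotonin neurons. It was at 8.26, 8.34 and 6.47 CPM in STD WT, 4.10, 3.70 and 5.35 CPM in STD KO, 9.63, 8.63 and 12.6 CPM in HFD WT and 1.25, 1.68 and 2.18 CPM in HFD KO. The groups did not overlap, and under the high fat diet edgeR put the difference at -2.60 on the log2 scale (SE 0.24, adjusted p = 0.00011), called in all 23 alternatives. Under the standard diet it was -0.95 (SE 0.23, adjusted p = 0.0745 in edgeR). The standard diet difference passed in 2 of 23 alternatives, DESeq2 (adjusted p = 0.00849) and edgeR with the length correction (adjusted p = 0.0465). Fev, a partner of Lmx1b in serotonin neurons that also marks endocrine precursors, did not pass, at 9.19 ± 3.90 CPM in HFD WT and 5.89 ± 0.79 CPM in HFD KO (SD, n = 3). KO islets thus had more Tph2 and less Lmx1b under the high fat diet.

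**Figure D4:**
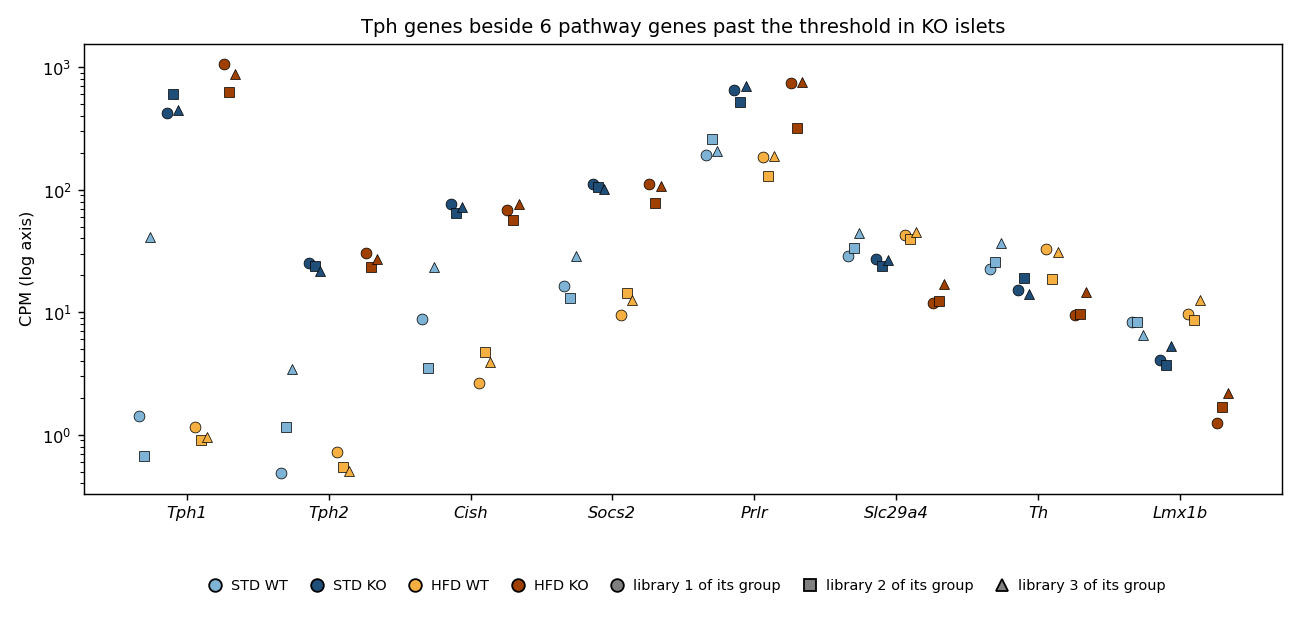
CPM on a log axis (y axis) of Tph1 and Tph2 beside the 6 pathway genes that passed the threshold in KO against WT under either diet (x axis). Colours give the group and shapes the library number. STD WT 3, the light blue triangle, lies above the other WT libraries for Tph1, Tph2, Cish and Socs2 but not for Prlr, and the HFD KO libraries are lowest for Slc29a4 and Lmx1b.

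The genes whose profile over the 12 libraries was most like that of each synthesis gene were found by the smallest root mean square difference between centred log2 CPM profiles, among 12505 genes. For Tph1 these were Gpr26 (0.85), Lrrc55 (1.10), Rph3a (1.33) and Prok1 (1.35), beside a spread of Tph1 itself over the libraries of 4.57 (SD, log2). For Tph2 they were Neb (0.36), Syndig1 (0.44), Matn2 (0.45) and Gbp11 (0.49), beside a spread of 2.52. For Ddc, whose own spread was 0.23, the closest were Mblac2, Slc16a12, Txnrd1 and Dph6 at 0.10 to 0.11. These likenesses are descriptions over libraries that share their groups. Htr1d had too few counts for such a profile.

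Other cells can hold serotonin genes, so their markers were summed in each library. Mast cell markers, of which Ms4a2 and Tpsab1 were at 0 in 6 or more libraries, summed to 11.1 to 22.4 CPM in STD WT, 13.2 to 27.2 CPM in STD KO, 7.76 to 20.5 CPM in HFD WT and 9.87 to 25.8 CPM in HFD KO. On average over the libraries this sum was led by Kit, Gata2 and Hdc, which are not particular to mast cells. The granule enzyme genes of mast cells were low, but under the high fat diet the 7 tested mast cell markers had a median log2 fold change of 2.32, beside -0.00 over all genes. Of these, 0 passed the adjusted threshold in edgeR, beside 7.4% of all genes, and Cma1 had an unadjusted p of 0.0442. Kit, Hdc and Gata2 averaged lower in HFD KO, at 5.38, 2.19 and 2.88 CPM, than in HFD WT, at 7.11, 3.05 and 3.08 CPM. The log2 fold changes were 3.36 for Cma1, 2.91 for Mcpt4, 2.71 for Tpsb2 and 2.32 for Cpa3. All 4 were highest in HFD KO 2, where Cma1 stood at 4.86 CPM against 0.17 and 0.62 CPM in HFD KO 1 and 3. Their part in the Tph1 and Tph2 difference was not tested. Platelet markers summed to 1.87 to 7.87 CPM over all libraries, with Gp1bb and Gp6 at 0 in 6 or more. The mast cell and platelet sums overlapped between genotypes under both diets. Gut epithelial markers, led by Vil1, summed to 75.3 to 217 CPM, and their groups overlapped. The highest was STD KO 3, where Muc2 alone reached 60.9 CPM. Cdx1, Lmx1a and Muc2 were at 0 in 6 or more libraries. The 6 tested gut markers had median log2 fold changes of 0.84 and 0.59 under the standard and high fat diets. Of these, 0 passed under either diet, beside 1.71% and 7.4% of all genes. Nerve markers summed to 59.0 to 103 CPM, also with overlap, and Dbh and Slc6a2 were at 0 in 6 or more. This sum was led by Tubb3, Elavl4 and Th. The 7 tested nerve markers had median log2 fold changes of 0.79 and 0.59 under the standard and high fat diets, beside -0.02 and -0.00 over all genes. Under the standard diet 0 passed, and under the high fat diet only Th did, which fell. The part of nerve and gut cells in the Tph1 and Tph2 difference was not tested.

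Macrophage markers did move with genotype. They summed to 223 to 244 CPM in STD WT and 266 to 378 CPM in STD KO, and to 144 to 262 CPM in HFD WT and 318 to 371 CPM in HFD KO, without overlap under either diet. Of the 9, C1qb, C1qc and Mrc1 rose under the high fat diet, where 7.4% of all genes passed. Under the standard diet 0 of the 9 passed, where 1.71% of all genes did. The part of macrophages in the Tph1 and Tph2 difference was not tested. The stellate and fibroblast, endothelial, acinar and ductal sums overlapped between genotypes under both diets. None of their tested genes passed under either diet. The stellate and fibroblast list had median log2 fold changes of 0.07 and 1.07 under the standard and high fat diets, beside 0.41 and 0.95 for macrophages. Averaged over both diets Cftr of the ductal list passed and was higher in KO, where 7.77% of all genes passed. Beta cell markers, led by Ins2, made up most of the marker counts in every library. The beta cell, alpha cell, and delta, PP and epsilon cell sums overlapped between genotypes under both diets. In bulk islets, fewer cells of a type and less RNA per cell cannot be told apart, and this holds for every level given here.

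**Figure D5:**
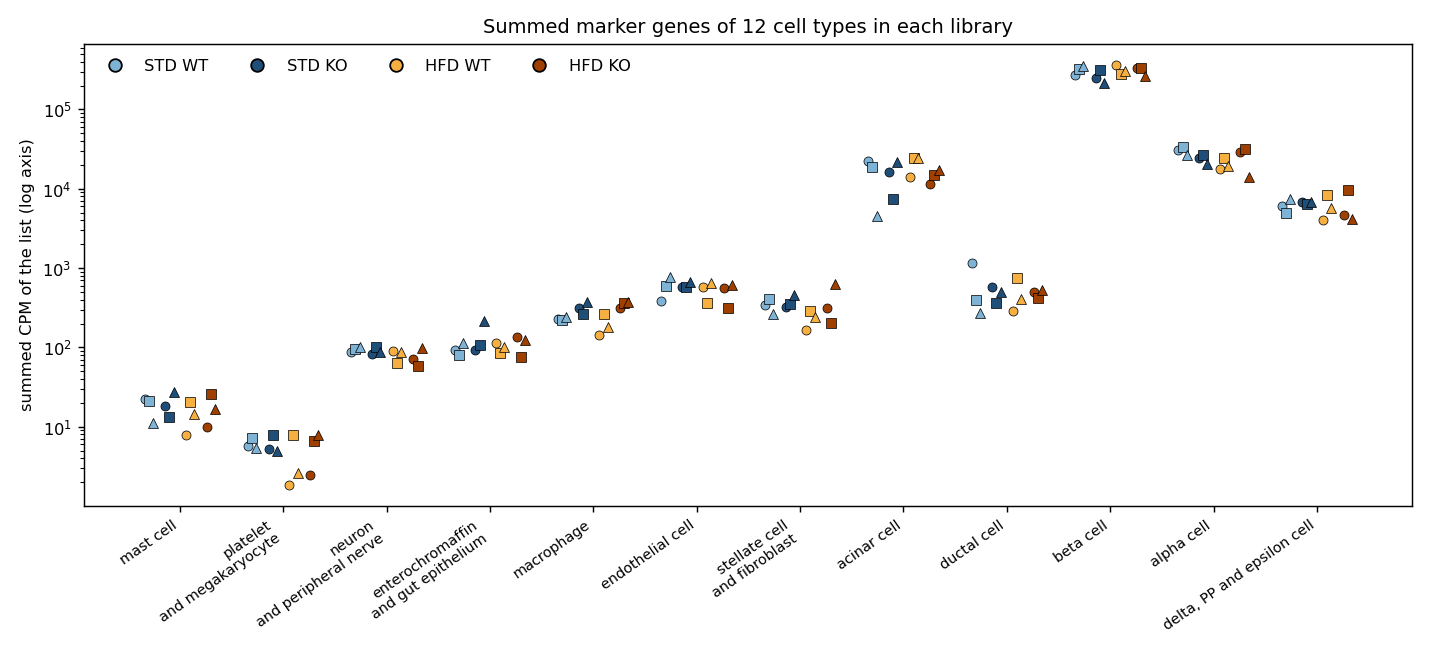
Summed CPM of the marker genes of 12 cell types (y axis, log) in each library, by cell type on the x axis, with colours for the groups and shapes for the library number. The mast cell and platelet sums stay under 28 CPM in all groups, the macrophage sum is higher in KO than in WT under both diets, and the acinar sum is lowest in STD WT 3.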

How the data were processed

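The authors deposited read counts per gene and, for the same genes, FPKM values, on the mm10 build. TopHat2, Cufflinks and DESeq are named, without versions, per the submitters' processing notes. How each file was made, with which annotation and strand setting, is not given in the sources used here. Of the FPKM, each of the 257939 nonzero values equals the count divided by a length and the library total (relative tolerance 1e-05). Symbols were matched for 54409 of 54532 genes, and coordinates are from GENCODE M21 on mm10.

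Counts were tested with edgeR 4.0.16 in R 4.3.3: filterByExpr (minimum count 10, total 15), TMM, robust quasi-likelihood with 1 mean per group, and 6 contrasts, each adjusted by Benjamini-Hochberg over 16076 genes at 0.05. The common biological coefficient of variation was 0.307. Totals of 16037709 to 20864920 counts leave small counts, and with them a large counting error, for Slc18a2, the receptors, and Tph1 and Tph2 in most WT libraries. The 95% intervals of ratios and the floor of 3 counts cover counting error only. The steps were tested on simulated data. Alternatives were DESeq2 1.42.0 (size factors, Wald test), no filter, 1 CPM in 6 libraries, limma 3.58.1 on log2 FPKM (pseudocount 1 or 0.1, mean FPKM of 0.5), the compared groups alone, a length correction, a replicate block, and leaving out libraries. The block in the high fat groups only, the exon union length and the same alternatives for 6 pathway genes were added after seeing the data.

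Deviations of same-numbered libraries from their group means correlated with r of 0.51, 0.41 and 0.34 between the high fat genotypes. Under the standard diet r was -0.00, -0.17 and -0.23. Libraries with different numbers reached r of 0.52 between the WT diet groups and 0.37 between the standard diet genotypes. With 3 libraries per group, these values cannot settle whether the numbers pair libraries, and the labels state no pairing. All 10 members are named. Pathway genes are named where they passed (at most 4 per list), with the highest receptor, markers that lead a list or are at 0, and the 4 genes most like each synthesis gene with a mean of at least 2 CPM (TMM, prior count 2). Gch1, Slc6a4 and Fev were named after their values were seen. The members and lists were chosen with earlier results of these data known.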

Additional observations from a re-analysis of the deposited data

How the results depend on the processing

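Under up to 23 alternatives, 2 or 3 members passed the threshold in KO against WT under the high fat diet and averaged over both diets (2 as reported), and 0 passed in both diet comparisons and the interaction. For KO against WT under the standard diet it was 1 and became 2 (Tph1 and Tph2) with the DESeq2 Wald test, with limma on log2 FPKM at either pseudocount, and without STD WT 3 and HFD KO 2, and 0 when only the compared groups were fitted. Leaving out 1 library gave 1 to 2, with 2 only without STD WT 3. The cause was not tested. With the replicate block the members past the threshold were 1 under the standard diet, 3 under the high fat diet and 3 on average, the addition being Slc18a1, and it changed no other call of a member. No called value changed direction. The exon union length moved 12 of 16 mean ratios by more than 1 SD.

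Counts over all genes moved more. The standard diet comparison had 275 genes, 484 with DESeq2 and 146 to 296 with 1 library left out. The high fat comparison had 1189, 2033 with DESeq2, 1969 with the block in the high fat groups only, 543 with the compared groups alone, and 519 (without HFD KO 1) to 2899 (without HFD KO 3) with 1 library left out. The diet comparison in KO had 7, 113 with DESeq2, 0 with the block or the compared groups alone, and up to 801 without HFD KO 3. Levels of Htr1d, Htr2b, Htr3a and Slc18a2 rest on at most 42 counts per library, those of Tph1 and Tph2 in WT on few counts outside STD WT 3, and differences there are limited by depth.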
